A study of Mus musculus with 4 samples.

Results

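The mitochondrial ribosomal protein genes are the 76 genes of the table whose symbols consist of Mrpl or Mrps, a number and at most one letter, out of 22609 genes listed. By name 47 belong to the large subunit and 29 to the small subunit. RNA was measured in whole testes of mice at postnatal day 3, in 2 mutant and 2 wild-type libraries of polyadenylated RNA read as single-end sequences of 100 bases. The mutant libraries carry a dominant-negative thyroid hormone receptor alpha 1, limited to Sertoli cells, and the wild-type libraries the normal receptor, both on a mainly C57BL/6J background. The parents were AmhCre mice, whose Cre is driven in Sertoli cells, the somatic cells that enclose germ cells in the tubules, and heterozygous carriers of the TRαAMI allele. Gene counts do not separate normal from mutant receptor transcripts, so they do not check the genotype labels. The labels do not say which of these alleles the wild-type animals carried or whether the libraries of a group are from different animals. The p-values therefore reflect no more than the spread among these 4 libraries, which may be technical. In RNA of whole testes, fewer cells of a type and less RNA per cell cannot be told apart.

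Mitochondrial ribosomes translate the few proteins encoded by mitochondrial DNA, which are core subunits of the respiratory chain and of ATP synthase. Their RNA comes from the mitochondrial genome, but their proteins are all encoded in the nucleus, made in the cytosol and imported. Some of these proteins have counterparts in bacterial ribosomes, and the others were added in the mitochondrial lineage. The genes are transcribed in nearly all cell types, and transcription factors of the NRF1, ETS and YY1 families are known to act on many nuclear genes for mitochondrial proteins.

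The short promoter stretches below are shown because they hold the recognition letters of those families. RefSeq windows from 250 bases before to 50 bases after the gene start (GRCm38.p6) were found for 67 members, and 9 were not matched (Mrpl4, Mrpl13, Mrpl15, Mrpl19, Mrpl38, Mrpl54, Mrps28, Mrps34 and Mrps35). Both strands were searched. Capitals mark the matched letters, and each stretch lies wholly before the start.

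The NRF1 palindrome with one free base, or its reverse complement (chr3:94443298-94443327 plus strand, chr13:14613105-14613134 minus strand, chr11:120484546-120484575 plus strand, and chr1:79775973-79776002 plus strand, in the order shown):
Mrpl9: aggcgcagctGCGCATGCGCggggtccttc
Mrpl32: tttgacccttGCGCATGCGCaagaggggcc
Mrpl12: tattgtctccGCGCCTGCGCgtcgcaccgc
Mrpl44: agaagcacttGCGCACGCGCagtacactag

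ETS letters CCGGAAG or their reverse complement (chr14:20393546-20393575 minus strand, chr14:54426851-54426880 plus strand and chr19:45006480-45006509 minus strand, in the order shown):
Mrps16: ttgggggcgctCTTCCGGgcttcaggctct
Mrpl52: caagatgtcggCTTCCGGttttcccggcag
Mrpl43: tcgcggtgactCCGGAAGcaaaactctcca

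YY1 letters AAGATGGCG as their reverse complement (chr13:73330968-73330997 plus strand and chr7:78783013-78783042 plus strand, in the order shown):
Mrpl36: cgtgaccttaCGCCATCTTtcttcctggcg
Mrps11: ctacgggcgcCGCCATCTTtctgtcttccc

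The ETS letters were found in the windows of 24 of the 67 members, and in 32.9% of the members' 73 windows against 8.86% of all 32851 RefSeq windows and 15.2% of the windows of tested genes. The NRF1 letters were found in 12 members, or 16.4% of windows, against 4.6% of all windows and 8.85% of those of tested genes. The YY1 letters were found in 8 members, or 11% of windows, against 1.4% of all windows and 2.52% of those of tested genes. A match before the gene start was present in 17 of the 24 ETS members, 9 of the 12 NRF1 members and 2 of the 8 YY1 members. Those 2 YY1 members are the ones shown. A match to one of the 3 was present in 39 members, and 5 of these held more than 1. The median log2 fold change was -0.27 in these 39 members, and -0.26 in the 28 without a match. The thyroid hormone response element of the direct-repeat type with a spacing of 4 bases (DR4) was in no member's window, in 0.0152% of all windows and in 0% of the windows of tested genes, so its absence is not particular to the members. These are matches of letters and were not tested as binding sites. Of the members shown by sequence and not described further below, Mrpl9 had a log2 fold change (mutant minus wild type, with its standard error) of -0.40 ± 0.11, Mrpl32 of -0.42 ± 0.13, Mrpl43 of -0.34 ± 0.0979 and Mrpl36 of -0.33 ± 0.12. None of these 4 passed the test described below.

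All 76 members passed the filter on low counts. Their counts made up 0.381% and 0.407% of all gene counts in the mutant libraries, against 0.474% and 0.481% in the wild-type libraries (replicate 1 and then replicate 2 here and below). Both mutant libraries lay below both wild-type libraries. Gene counts per library ranged from 10230512 to 15636832.

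Transcripts of the mitochondrial ribosome were slightly lower in mutant than in wild-type testes across most of the family. The log2 fold change, mutant minus wild type, was negative in 75 of 76 members, with a median of -0.26, which is 1.20-fold lower. Over all 14788 tested genes the median was -0.0060, and 50.8% of the genes had a negative value. In 67 members both mutant libraries lay below both wild-type libraries, a pattern seen in 29.0% of all tested genes. No member had both mutant libraries above both wild-type libraries, which 28.3% of all tested genes did.

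Few single members passed the test. By edgeR's quasi-likelihood test with Benjamini-Hochberg adjustment over all tested genes, 5 members fell and none rose at an adjusted p below 0.05, against 2.52% of all tested genes called lower and 3.15% called higher. DESeq2 called 6 members lower and none higher, against 412 lower and 614 higher among all 14788 tested genes. Before adjustment 44 members (57.9%) had an edgeR p below 0.05, as did 25.5% of all tested genes. A further 17 members had an adjusted p between 0.05 and 0.1. The median standard error of a member's log2 fold change was 0.11.

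**Figure D1:**
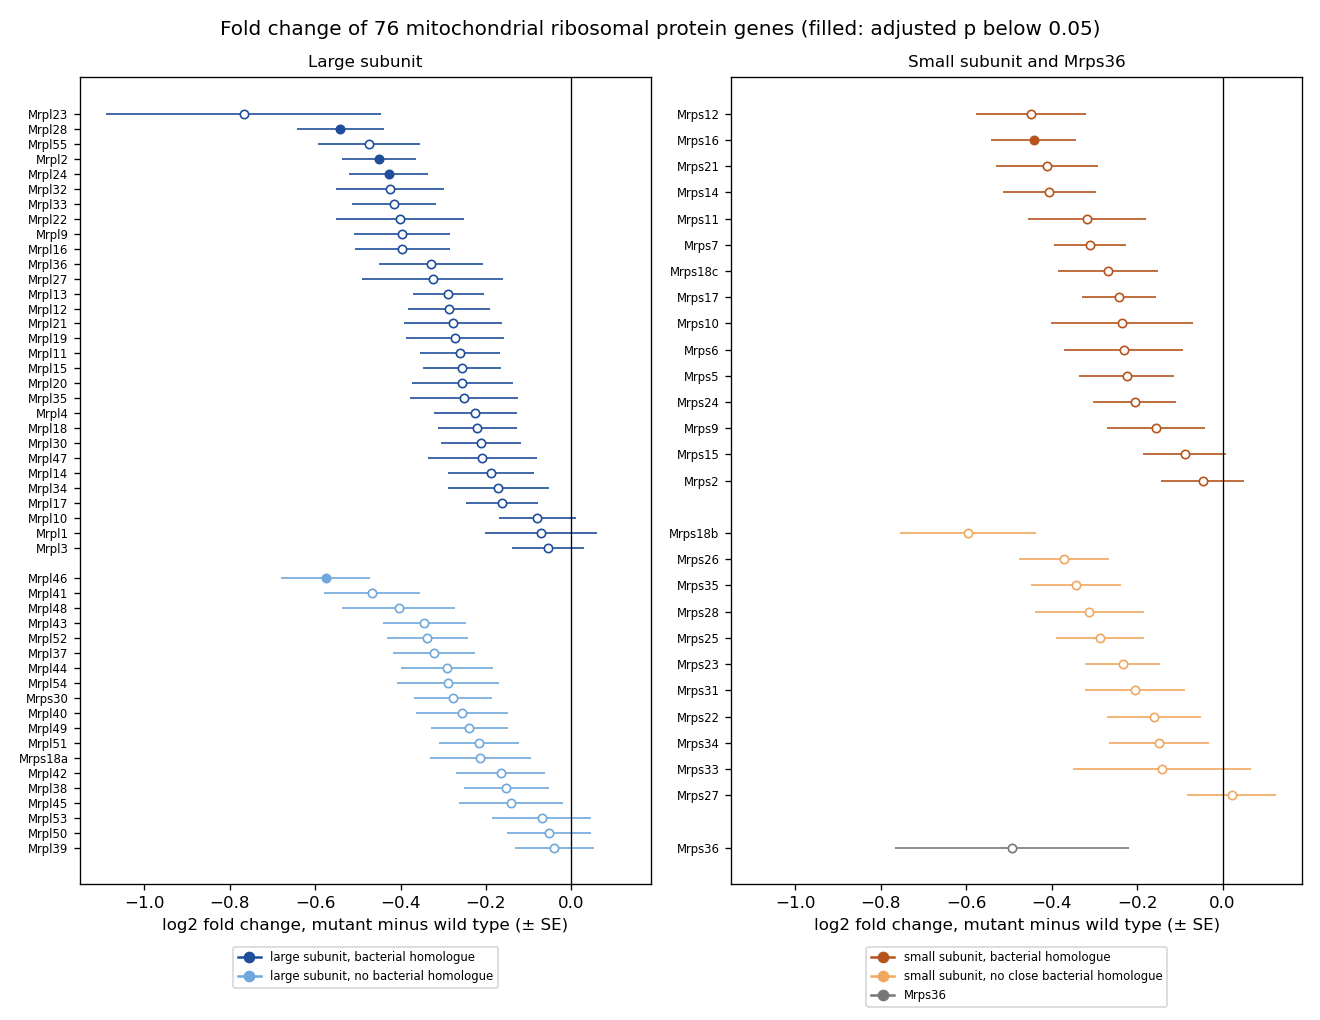
Log2 fold change, mutant minus wild type, of each of the 76 members with its standard error, by subunit and bacterial homology (2 libraries per group). Filled points passed an adjusted p of 0.05; only Mrps27 lies right of 0.

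The members' log2 fold changes ran from -0.77 for Mrpl23 to 0.02 for Mrps27, with an SD of 0.14 over members against the median standard error of 0.11. The quartiles of the members were -0.38 and -0.20. Relative to each gene's own mean over the 4 libraries, the members' median log2 CPM (counts scaled to the size of each library by edgeR) stood at -0.18 in mutant replicate 1 and -0.09 in mutant replicate 2, against 0.11 in wild-type replicate 1 and 0.14 in wild-type replicate 2. Mutant replicate 1 was the lowest library in 57 members and mutant replicate 2 in 18. Wild-type replicate 2 was the highest in 43 and wild-type replicate 1 in 31. Other tested genes of at most 2030 bases had the same order, with medians of -0.11 and -0.05 in the mutant libraries and 0.06 and 0.11 in the wild-type libraries. The authors' share of unique reads was 87.9% and 92.7% in the mutant libraries against 93.1% and 92.4% in the wild-type libraries.

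**Figure D2:**
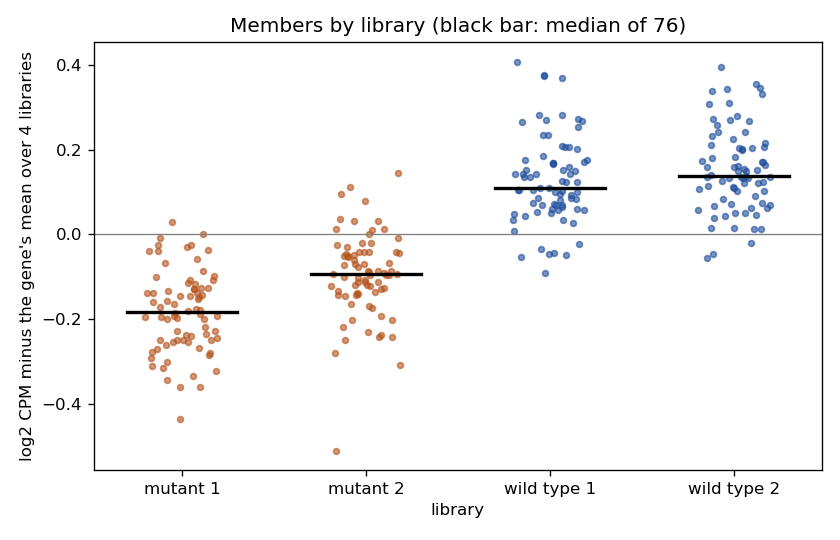
Log2 CPM of each member minus its mean over the 4 libraries (vertical axis), for 2 mutant and 2 wild-type libraries; points are the 76 genes and black bars are medians. The medians of the mutant libraries are -0.18 and -0.09 and those of the wild-type libraries 0.11 and 0.14.

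Of the 49 members placed in the large subunit by structure, which include Mrps18a and Mrps30 despite their names, 30 have a homologue in the bacterial large subunit. All 30 had negative log2 fold changes, the median was -0.27, and 3 fell. Mrpl28 (chromosome 17, 26260465 to 26263558, plus strand, mm9), a protein of the bacterial L28 family, had 71.3 and 76.4 CPM in the mutant libraries and 115 and 99.5 CPM in the wild-type libraries. The groups did not overlap, and the log2 fold change came to -0.54 ± 0.10 (± gives the SE here and below; adjusted p = 0.0280).

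Mrpl2 (chromosome 17, 46783178 to 46787088, plus strand), whose bacterial relative lies close to the site of peptide bond formation, had 73.2 and 70.7 CPM in the mutant libraries and 97.2 and 99.4 CPM in the wild-type libraries. It fell by 0.45 on the log2 scale, with an SE of 0.0863 (adjusted p = 0.0288), and the replicates within each group differed by far less than the groups. Mrpl24 (chromosome 3, 87723428 to 87727594, plus strand), of the family that sits by the exit of the peptide tunnel in bacteria, had 59.1 and 56.6 CPM in the mutant libraries and 80.0 and 75.6 CPM in the wild-type libraries. Its log2 fold change was -0.43 ± 0.0930 (adjusted p = 0.0392). Of the exon bases of Mrpl24, 26.3% are shared with Rrnad1 on the opposite strand, and since the strand setting of the counting is not given, reads of the pair cannot be told apart there.

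Just outside the threshold, Mrpl33 had 54.9 and 58.2 CPM in the mutant libraries and 71.8 and 79.3 CPM in the wild-type libraries (log2 fold change -0.42 ± 0.0991, adjusted p = 0.0506). Mrpl55, a homologue of bacterial L31, had 25.9 and 27.2 CPM in mutant and 37.9 and 36.0 CPM in wild-type libraries (-0.47 ± 0.12, adjusted p = 0.0574). Neither passed the test, although their groups did not overlap. The stalk of the large subunit recruits translation factors. Its 5 members were Mrpl12 at -0.29 ± 0.0969, Mrpl54 at -0.29 ± 0.12, Mrpl11 at -0.26 ± 0.0939, Mrpl10 at -0.08 ± 0.0902 and Mrpl53 at -0.07 ± 0.12, and none was called. Differences among them were not tested.

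Mrpl12, the stalk protein that has also been reported to bind the mitochondrial RNA polymerase, had the highest mean CPM of the family, with 108 and 125 CPM in the mutant libraries against 139 and 146 CPM in the wild-type libraries (adjusted p = 0.115). Mrpl13, a large subunit protein, came next with 91.5 and 95.7 CPM in mutant and 114 and 115 CPM in wild-type libraries (-0.29 ± 0.0837, adjusted p = 0.0797). Mrpl10, which anchors the stalk, followed with 98.8 and 97 CPM in mutant and 98.3 and 109 CPM in wild-type libraries, and these groups overlapped (adjusted p = 0.621). Per kilobase of exon the order was another: Mrpl52 was the highest at a mean of 227 CPM per kilobase over the 4 libraries, followed by Mrps16 at 135 and Mrpl11 at 105, against 84.4 for Mrpl12. That scale uses the union of all annotated exons, which is 412 bases for Mrpl52.

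The 19 large subunit members without a homologue in the bacterial large subunit, Mrps18a among them, had a median of -0.26, all negative, and 1 fell. Mrpl46 (chromosome 7, 85920122 to 85928417, minus strand) had 34.0 and 34.3 CPM in the mutant libraries against 50.2 and 51.8 CPM in the wild-type libraries. It fell 1.49-fold (log2 fold change -0.57 ± 0.10, adjusted p = 0.0248), the smallest p of the family. Mrpl46 faces another member, Mrps11, a small subunit protein whose transcript starts 412 bases from its own on the opposite strand, with overlapping ends. Of the exon bases of Mrpl46, 12.4% are shared with Mrps11, and reads of the pair cannot be told apart there, since the strand setting is not given. Mrps11 had 59.2 and 64.7 CPM in the mutant libraries and 66.8 and 88.1 CPM in the wild-type libraries (-0.32 ± 0.14, adjusted p = 0.193). The wild-type replicates of Mrps11 lay far apart and it was not called.

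Mrpl41, which has also been described as a partner of Bcl2, had 55.2 and 65.6 CPM in mutant and 79.6 and 87.9 CPM in wild-type libraries (-0.47 ± 0.11, adjusted p = 0.0525). Mrpl44, a protein with a ribonuclease III fold, stood at -0.29 ± 0.11 (adjusted p = 0.138). Mrps30, which despite its name sits in the large subunit, had 55.1 and 54.8 CPM in the mutant libraries against 66.8 and 66.4 CPM in the wild-type libraries (-0.28 ± 0.0920, adjusted p = 0.111). The replicates of Mrps30 agreed closely in both groups, yet a shift of this size did not pass.

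**Figure D3:**
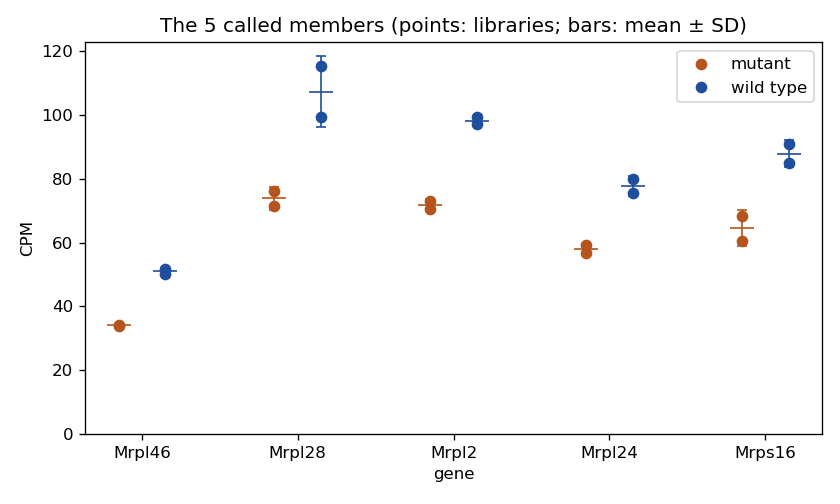
CPM of the 5 members that fell, with mutant libraries left of wild-type libraries for each gene; points are libraries and bars are mean ± SD (n = 2 each). In each gene both mutant libraries lie below both wild-type libraries, as for Mrpl46 with 34.0 and 34.3 CPM in mutant against 50.2 and 51.8 CPM in wild-type libraries.

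In the small subunit, 15 members with a bacterial homologue had a median of -0.24, all negative, and 1 fell. Mrps16 (chromosome 14, 21210453 to 21212777, minus strand), a member that human patients with respiratory chain defects can lack, had 60.6 and 68.5 CPM in the mutant libraries and 84.9 and 90.9 CPM in the wild-type libraries. It fell 1.36-fold (log2 fold change -0.44 ± 0.10, adjusted p = 0.0442). Mrps12, the decoding-site protein of the small subunit, had 38.5 and 40.9 CPM in mutant and 60.0 and 48.2 CPM in wild-type libraries (-0.45 ± 0.13, adjusted p = 0.0778). Mrps12 was as low as Mrps16 in relative terms but had a wider wild-type spread, and it was not called. Mrps2 at -0.05 ± 0.0971 and Mrps15 at -0.09 ± 0.0978 were at the other end of this group.

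The 11 small subunit members without a close bacterial homologue had a median of -0.23, and neither edgeR nor DESeq2 called any of them (0 by each). In edgeR's test 6 of them had a p below 0.05 before adjustment, against 25.5% of all tested genes. The only positive value of the family was that of Mrps27, a pentatricopeptide repeat protein, with 54.5 and 53.1 CPM in the mutant libraries and 50.1 and 56.1 CPM in the wild-type libraries (0.02 ± 0.10, adjusted p = 0.923). Those groups overlapped. Mammals have 3 Mrps18 proteins in different places of the ribosome. Mrps18b stood at -0.60 ± 0.16 (adjusted p = 0.0661), Mrps18c at -0.27 ± 0.12 (adjusted p = 0.196) and Mrps18a, now placed in the large subunit, at -0.21 ± 0.12 (adjusted p = 0.298). None of the 3 was called, and differences among them were not tested.

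The members with the lowest levels share a feature of their sequence, in that much of it is found elsewhere in the genome. The lowest mean CPM were those of Mrpl23, Mrps36 and Mrps33. For each member, the 100-base windows of its longest protein-coding transcript were searched exactly in the mm9 genome outside its own gene. Of the windows of Mrpl23, a large subunit protein, 74.4% were found elsewhere, and it had 2.18 and 1.72 CPM in the mutant libraries against 3.30 and 3.23 CPM in the wild-type libraries. Mrps36, since recognised as a subunit of the 2-oxoglutarate dehydrogenase complex, had 69.6% of windows elsewhere, with 3.37 and 3.57 CPM in the mutant libraries and 4.43 and 5.49 CPM in the wild-type libraries. For both genes the annotation names pseudogenes, Mrpl23-ps1 on chromosome 2 and Mrps36-ps1 and Mrps36-ps2 on chromosomes 17 and 7.

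Mrps18b (51.6%), Mrps33 (41.5%), Mrps21 (32.9%), Mrpl27 (25.3%), Mrpl22 (20.1%) and Mrps10 (18.4%) were the other members with at least 10% of windows elsewhere. The median level was 9.32 CPM per kilobase of union exon in these 8 members, against 35.6 in the other 68. Of the 8, only Mrpl27 (43.2) and Mrps21 (38.6) lay above the second value. The windows are those of the longest coding transcript, which can be far shorter than the union. Per kilobase of that transcript Mrps10 had 24.4 CPM in place of 3.37, so part of the contrast may come from the length used. The authors' table sets reads with several alignments apart, so the levels of these 8 are uncertain. Their median log2 fold change was -0.41, with a median SE of 0.17, against -0.26 and 0.10 in the other 68 members. Mrpl23, at -0.77 ± 0.32 (adjusted p = 0.184), and Mrps36, at -0.49 ± 0.27 (adjusted p = 0.301), had the widest errors of the family. Mrps33, at -0.14 ± 0.21, overlapped between groups. In 55 members no window was found elsewhere.

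**Figure D4:**
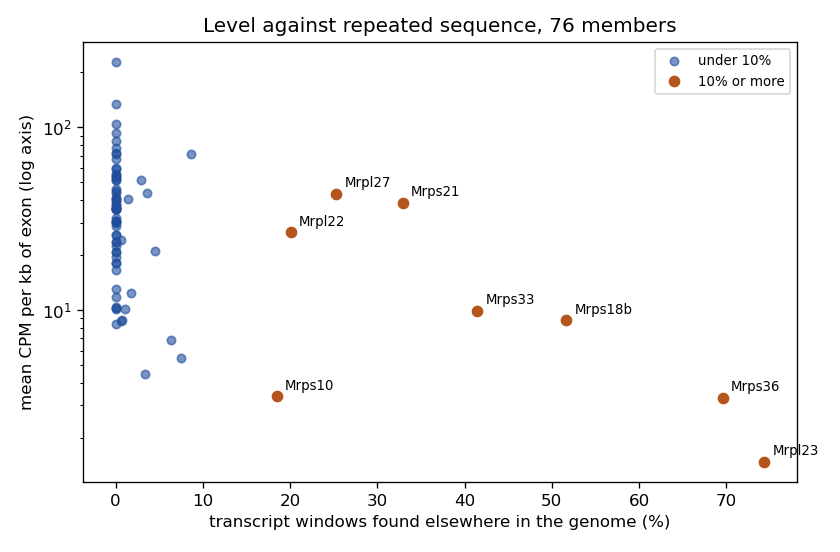
Mean level over the 4 libraries in CPM per kilobase of exon (log axis) against the percentage of 100-base transcript windows found elsewhere in the genome, for 76 members. The members with the most repeated windows, Mrpl23 at 74.4% and Mrps36 at 69.6%, have low levels. The median is 9.32 in the 8 labelled members and 35.6 in the others, with the labelled Mrpl27 and Mrps21 above 35.6.

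Exons are also shared with other genes. In 26 members some exon bases lie in another annotated gene, and in 16 at least 10% do, as in Mrpl53 (87.1%, with Ccdc142 on the same strand), Mrps34 (63.4%, with Mapk8ip3 on the opposite strand) and Mrps25 (53.7%, with Nr2c2 on the opposite strand). By a limit set after seeing the data, 53 members had under 10% by both measures. All 53 had negative log2 fold changes, with a median of -0.26, and 3 of them fell.

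Short genes other than these also shifted. With the 14598 tested genes of known exon length split by length into 10 groups of equal size, the median log2 fold change of the genes outside the family was -0.21 in the shortest group, at most 1442 bases, and 0.12 in the longest group, at least 8111 bases. It increased with each step of length between. The family has a median exon length of 1700.5 bases, against 3675 over all tested genes, and 44 of its members lie in the 2 shortest groups. In the shortest group the median of the 31 members was -0.33 and 75.6% of the other 1432 genes had negative values. In the next group the median of the 13 members was -0.23, against -0.12 in the other genes.

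Set beside other short genes of similar level, the members differed less from the background. Among genes of at most 2030 bases and a mean of 30.2 to 88.2 CPM, the 36 members had a median of -0.26, and the other 709 genes had a median of -0.18, with quartiles of -0.31 and -0.06. Both mutant libraries lay below both wild-type libraries in 91.7% of those members and in 61.1% of those other genes. The share called lower was 8.33% of those members and 7.33% of those other genes. Of all 76 members, 65 lay below the median of the other genes in their own length group, and the median difference was -0.16 on the log2 scale. Members longer than 4305 bases also had negative values, although the other genes of those length groups had positive medians. For several of these, such as Mrpl13 with 7936 bases, the exon union is far longer than the longest coding transcript of 1223 bases.

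**Figure D5:**
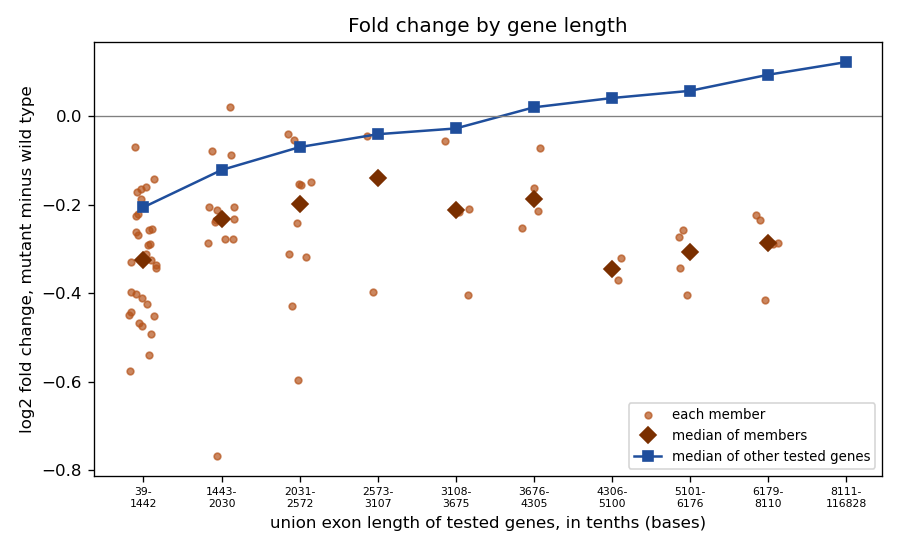
Log2 fold change, mutant minus wild type, by group of union exon length (10 groups of equal size): small points are members, diamonds their medians, squares the medians of the other tested genes. The other genes run from -0.21 in the shortest to 0.12 in the longest group, and the members' medians lie below them in every group that holds members.

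When the trend of expression with exon length was taken out of each library, the family's median log2 fold change was -0.16, with 65 of 76 members negative. None of the 5 members called before passed the test then. Mrpl46 stood at -0.42 (adjusted p = 0.0645), Mrpl24 at -0.36 (0.0748), Mrpl28 at -0.38 (0.0991), Mrpl2 at -0.27 (0.121) and Mrps16 at -0.19 (0.250). Over all tested genes 223 were called lower with this offset, against 373 without it. Mrpl33 and Mrpl13 were called lower in their place, at -0.52 (adjusted p = 0.0437) and -0.40 (adjusted p = 0.0495), both members whose union of exons is far longer than their coding transcript. With the length of the longest coding transcript instead, a choice made after seeing the data, the median was -0.12. Then 64 members were negative, edgeR called none, and 19 had an unadjusted p below 0.05. Without an offset 25.5% of all tested genes had such a p, and the share with this offset is not given.

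The median stayed negative without any 1 library, and the number of members called moved with the number of calls over all genes. Its median was -0.22 without mutant replicate 1, -0.32 without mutant replicate 2, -0.27 when wild-type replicate 1 was left out and -0.25 when wild-type replicate 2 was. Without wild-type replicate 1 edgeR called no member, with 35 at an unadjusted p below 0.05, and 40 of all 15080 genes tested were called lower. Without wild-type replicate 2 it called no member, with 32 at an unadjusted p below 0.05, and 88 of all 15306 genes were called lower. With all libraries 25.5% of all tested genes had an unadjusted edgeR p below 0.05, and the share in those fits is not given. The log2 fold change of Mrpl46 was -0.60 and -0.56 in those fits, against -0.57 with all libraries. Without mutant replicate 1, Mrpl2, Mrpl28 and Mrpl46 were called, among 334 genes called lower. Without mutant replicate 2, 7 members were called, of which 3 had been called with all libraries, among 477 genes called lower.

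Other genes of the mitochondrial ribosome and its use gave smaller or similar values. The 7 ribosomal proteins whose symbols the naming rule does not match, among them Dap3, a GTP-binding protein of the small subunit, had a median of -0.25. All 7 were negative, edgeR called none, 4 had an unadjusted p below 0.05, and Dap3 stood at -0.33 ± 0.0816 (adjusted p = 0.0547). The 22 tested assembly and RNA modification factors had a median of -0.20, with 20 negative, none called and 5 at an unadjusted p below 0.05. Over all tested genes 25.5% had an unadjusted edgeR p below 0.05, so the count of assembly factors is near the background. Rbfa, which helps to mature the small subunit, had 69.5 and 66.8 CPM in the mutant libraries and 84.6 and 97.8 CPM in the wild-type libraries (-0.42 ± 0.10, adjusted p = 0.0535).

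None of the remaining mitochondrial gene expression lists had a called member in edgeR's test. Their counts at an unadjusted p below 0.05 stand beside the 25.5% of all tested genes and do not exceed that share. The 13 translation factors had a median of -0.07, and 3 had an unadjusted p below 0.05, led by Mtfmt, which formylates the initiator, at -0.35 ± 0.14. The 20 genes of aminoacyl-tRNA formation had a median of -0.08 (1 at an unadjusted p below 0.05), led by Sars2. The 7 genes of mitochondrial DNA transcription and upkeep had a median of -0.09 (1 at an unadjusted p below 0.05), led by Ssbp1, the single-stranded DNA binding protein, at -0.30 ± 0.12. The 10 regulators of mitochondrial biogenesis had a median of 0.11, and 2 had an unadjusted p below 0.05, in opposite directions. Both mutant libraries lay above both wild-type libraries in 4 of the 10 and below them in 1. Over all tested genes the shares were 28.3% above and 29.0% below. Myc, a growth-related transcription factor, had 35.3 and 31.3 CPM in the mutant libraries and 26.9 and 25.9 CPM in the wild-type libraries (0.33 ± 0.13, adjusted p = 0.156). Gabpb1, the partner subunit of the ETS factor GABPA, had 41.8 and 44.8 CPM in the mutant libraries and 58.1 and 55.2 CPM in the wild-type libraries (-0.39 ± 0.10, adjusted p = 0.0646). These lists also differ in length, with a median exon length of 2757.5 bases for assembly factors, 3261 for translation factors and 6164 for the regulators.

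Beside the 2 most similar families, the medians were close. The 77 cytosolic ribosomal protein genes had a median log2 fold change of -0.28 at a median exon length of 1439 bases. Of these, 7 were called lower and none higher. The 83 tested nuclear-encoded respiratory chain and ATP synthase subunits had a median of -0.23 at 1237 bases, with 8 called lower and 2 higher. Over all tested genes 2.52% were called lower and 3.15% higher. Both mutant libraries lay below both wild-type libraries in 56 of the 77 and 57 of the 83, against 67 of the 76 members. They lay above them in 2 of the 77 and 4 of the 83. Over all tested genes these shares were 29.0% below and 28.3% above. No difference between the families was tested.

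Genes that start within 1000 bases of a member on the opposite strand, or overlap its start by up to 500 bases, gave 25 tested pairs, the pair of Mrpl46 and Mrps11 counted from both sides. The partners had a median of -0.12 with 15 negative, and the members in those pairs -0.29. Sars2, the mitochondrial seryl-tRNA synthetase that starts next to Mrps12, stood at -0.33 ± 0.14 (adjusted p = 0.195). Ppp1r10, next to Mrps18b, stood at 0.17 ± 0.12 (adjusted p = 0.432), opposite in sign to its neighbour.

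Summed levels of cell type markers also differed between the libraries for some cell types. Beside the calls given here, 2.52% of all tested genes were called lower and 3.15% higher. Sertoli cell markers summed to 2956 and 2842 CPM in the mutant libraries against 3093 and 3104 CPM in the wild-type libraries, and 2 of 8 fell (Cldn11 and Dmrt1). Leydig cell markers summed to 1160 and 1139 CPM in the mutant libraries against 947 and 1059 CPM in the wild-type libraries, and none of 5 was called. Germ cell markers summed to 308 and 269 CPM in the mutant libraries against 844 and 563 CPM in the wild-type libraries, and all 7 tested of 8 fell. Skeletal muscle markers summed to 2308 and 593 CPM in the mutant libraries against 12.2 and 12.0 CPM in the wild-type libraries, and 7 of 8 rose, with Myl1 at 0 counts in wild-type replicate 2. Macrophage markers summed to 332 and 469 CPM in mutant against 193 and 255 CPM in wild-type libraries (3 of 6 rose). Adipocyte markers summed to 27.2 and 26.1 CPM in mutant against 73.0 and 81.0 CPM in wild-type libraries (3 of 4 fell), with Cfd at 0 counts in both mutant libraries. Fabp4 made up 50.5 and 52.2 CPM of the wild-type adipocyte sums, and Plin1 was not called (-0.33 ± 0.17, adjusted p = 0.252). Of 4 red cell markers 2 were tested and neither was called, with sums of 20.7 and 23.6 CPM in the mutant libraries against 11 and 25.3 CPM in the wild-type libraries. The share of reads outside annotated genes was 17.3% and 14.4% in the mutant libraries against 13.8% and 15.3% in the wild-type libraries. The part of these differences in the shift of the mitochondrial ribosomal protein genes was not tested.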

How the data were processed

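The authors deposited 1 table of gene counts for 4 libraries of whole testis, given the unit estimated counts since lines under the genes hold percentages. The gene values are whole numbers, so rounding changed nothing. The submitters' processing notes name build mm9 and, without roles, TopHat 1.4.0, CASAVA 1.8.1, DESeq2 and HTSeq. How strand was treated in counting, and with which annotation, is not given in the sources used here. Lines that name no gene were kept out. Counts were tested with edgeR 4.0.16 (R 4.3.3; quasi-likelihood F test, TMM, minimum count 10, minimum total 15, genotype alone, legacy option off), which kept 14788 genes. The length offset removed each library's lowess trend (span 0.3) of log2 CPM, centred per gene, on log2 exon length. DESeq2 1.42.0 and limma 3.58.1 (voom) were alternatives. Gene positions and lengths are those of GENCODE M1 on NCBIM37 (mm9), matched by symbol for 21627 genes.

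Members, lists and tests were chosen with earlier results of these data known. Named were all called members, the 8 smallest p in each direction, the 3 highest and 3 lowest levels, the Mrps18 genes, Mrpl12, Mrps12, Mrpl44, Mrps30 and Mrps36, and the smallest p of each other list; further genes (among them Myc, Mrpl9, Mrpl32, Mrpl36, Mrpl43, Mrpl52, Mrpl11, Mrpl53, Mrpl54, Mrps11, Mrps2 and Mrps15) were named after their values were seen. SE was taken as the absolute log2 fold change over the root of edgeR's F statistic.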

Additional observations from a re-analysis of the deposited data

How the results depend on the processing

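The counts of calls and the median were recomputed under 16 planned settings and 2 chosen after seeing the data (the offset by longest coding transcript and the members with little repeated or shared sequence). No setting called a member higher. The number called lower was 5 in the fit reported, and 3 with no filter on low counts, 2 with the length offset, 2 with the length offset and the replicate block, 0 with the offset by longest coding transcript and 3 among the 53 members with little repeated or shared sequence. Leaving out 1 library each gave 0 to 7 called lower, while lower calls over all genes ran from 40 of 15080 to 477 of 15070, with the lone library of a group assumed to vary like the other group. The median log2 fold change was -0.16 with the length offset, -0.17 with the length offset and the replicate block, -0.12 with the offset by longest coding transcript, and from -0.32 to -0.22 without 1 library each. Other normalisations, tools and filters gave 4 to 7 called lower, apart from the 3 named, and medians from -0.27 to -0.25.

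The replicate numbers are not shown to pair the samples: replicate 1 minus 2 differences correlated at -0.03 between groups over the tested genes. With the replicate block the median was -0.27 and 6 members were called lower, Mrpl41 in addition.

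Negative values were seen in 65 of 76 members with the length offset and 64 by longest coding transcript, against 75 in the fit reported. Changes of sign were followed one by one only for the 21 members named by rule. Among those 21, the sign turned with the length offset for Mrpl10 (0.036, and 0.036 with the replicate block) and Mrps33 (0.021, and 0.0031 with the block). By longest coding transcript it turned among those 21 for Mrpl10 (0.016), Mrps33 (0.036) and Mrps18a (0.0029). Leaving out 1 library each, Mrps33 ran from -0.42 to 0.055, positive without mutant replicate 1, and Mrps27 from -0.063 to 0.099, negative without wild-type replicate 1. The cause was not tested. With 2 libraries a group, shifts near -0.26 mostly did not pass the test for single genes.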
